A study of Mus musculus with 8 samples.

Results

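Testes of mice in which Cre recombinase was driven by the Sf1 promoter were compared with testes of mice in which it was driven by the Dhh promoter, on 6 of the 8 arrays of the study. The 4 arrays labelled Sf1-Cre came from males of genotype Dmrt1 flox/flox with SF1-cre, and the 2 arrays labelled Dhh-Cre came from males of genotype Dmrt1 flox/flox with Dhh-cre. The 2 control arrays, used here for levels and for the estimate of spread, came from Dmrt1 flox/flox males with no Cre. All 8 mice therefore carried 2 floxed copies of Dmrt1, were 28 days old and had a mixed C57BL6/6J and 129 background, of which the share in each animal is not given. The labels call each array of a group a biological replicate, and each array measured RNA of whole testis, so that fewer cells of a type and less RNA per cell cannot be told apart. Each mutant array is described as both wt and Dmrt1 KO, and the control descriptions hold no wt. What wt refers to is not given. The members of the comparison were chosen by their labels alone.

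Dmrt1 encodes a transcription factor of Sertoli and germ cells. Sertoli cells are the somatic cells of the seminiferous tubule that nurse the germ cells, and loss of Dmrt1 from them is known to let them take on features of granulosa cells, their counterparts in the ovary, where Foxl2 maintains cell identity. Sox9 and Sox8 maintain the Sertoli state. Sf1, the product of Nr5a1, is made from early gonad development on in the somatic lineages of the gonad, Leydig cells included, and in the adrenal cortex, whereas Dhh, a secreted hedgehog ligand, is made by Sertoli cells and by Schwann cells. The labels describe both promoters as specific to Sertoli cells.

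Values below are log2 of the deposited intensity of 1 probe set per gene, with 16 (log2 4) as the level under which a signal is not read. A difference is Sf1-Cre minus Dhh-Cre, given with limma's standard error (SE), and a gene passed when its p-value from limma, adjusted over all 13802 genes tested, was under 0.05. Folds against a group whose mean lay under log2 4 are written as lower bounds. A difference against such a group uses values that are not read as levels, so its exact size is not interpreted, and where setting every value under log2 4 to 4 moved a difference by over 1.5 times, the value so obtained is added as floored. The median intensity of all probe sets was 15.2 to 15.9 in the 6 mutant arrays, and Pearson's r across probe sets, which are not replicates, was 0.989 between the Dhh-Cre arrays, 0.980 to 0.994 among the Sf1-Cre arrays and 0.954 to 0.978 between the groups. The 3' to 5' signal ratio of Actb, a sign of RNA integrity, was 13.6 and 9.51 with Dhh-Cre and lay between 9.45 and 13.5 with Sf1-Cre, so these groups overlapped. It was 4.89 and 4.44 in the controls, under every mutant array. The ratio of Gapdh was 3.30 and 1.90 with Dhh-Cre, 1.67 to 2.34 with Sf1-Cre and 3.58 and 2.96 in the controls. For Gapdh, Dhh-Cre array 1 thus lay above every Sf1-Cre array. Spink8, an epididymal gene, stood at log2 10 or above in Dhh-Cre array 1 and Sf1-Cre arrays 1 and 3, and below 7 in the other 5 arrays.

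The targeted gene was read first. Dmrt1 on chromosome 19 stood at 10.43 and 9.94 in the arrays labelled Dhh-Cre, at 7.10, 7.89, 7.63 and 7.53 in those labelled Sf1-Cre and at 8.50 and 8.76 in the controls. Every Dhh-Cre array therefore lay above every control array, and every Sf1-Cre array below every control array. Between the drivers the difference was -2.64 ± 0.25 (adjusted p = 0.00054, limma), 6.25-fold higher in Dhh-Cre. No source used here gives where the probe set lies relative to the floxed exons, and germ cells also express Dmrt1, so its level is no measure of recombination in Sertoli cells. The deletion in the Dhh-Cre samples can therefore not be checked from this level. They are called the arrays labelled Dhh-Cre, or Dhh-Cre for short, throughout. The median level of the Sertoli cell genes tested was also higher in them (10.08 and 9.84) than in the controls (8.09 and 7.82). In the Sf1-Cre arrays this median was 10.05 to 10.74, likewise above both controls.

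Of the 13802 genes tested, 3402 (24.6%) passed between the drivers. Of these, 1778 (12.9%) were higher in Sf1-Cre and 1624 (11.8%) were higher in Dhh-Cre. Of the genes that passed, 2101 differed at least 2-fold, 1261 of them higher in Sf1-Cre and 840 higher in Dhh-Cre. In none of the 3402 did the arrays of the groups overlap, but non-overlap was frequent among all genes: every Sf1-Cre array lay above both Dhh-Cre arrays in 24.5% of the genes tested and below both in 23.2%. The median difference of all genes was 0.02. With 2 arrays labelled Dhh-Cre the count rests on each of them: 1234 genes passed without Dhh-Cre array 1 and 2201 without Dhh-Cre array 2, and without Sf1-Cre array 2 the number higher in Sf1-Cre was 1153. Without the 3 arrays of high Spink8 816 genes passed. With each array centred on its peritubular and endothelial genes instead of used as deposited, 1023 genes were higher in Sf1-Cre and 2022 higher in Dhh-Cre, and the median of all genes moved to -0.27.

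The control arrays place these differences, but list medians also shifted against control. The median of the 13 housekeeping genes was 10.43 and 10.24 with no Cre, under every mutant array (11.90 to 12.24). For the 23 Sertoli cell genes it was 8.09 and 7.82, against 9.84 to 10.74 over the 6 mutants. Spermatid genes had lower medians in the mutants, 3.89 to 7.68 against 12.05 and 11.87. A gene near its control level can thus lie low relative to other genes of its cell type. The cause was not tested. Among the 1778 genes higher in Sf1-Cre, 1068 (60.1%) had means ordered control, Sf1-Cre, Dhh-Cre from high to low, against 47.6% of all 7190 tested genes with the Sf1-Cre mean above the Dhh-Cre mean, and 605 (34%) were ordered Sf1-Cre, Dhh-Cre, control, against 48.2% of the 7190. Among the 1624 genes higher in Dhh-Cre, 936 (57.6%) were ordered Dhh-Cre, Sf1-Cre, control, and 491 (30.2%) were ordered Dhh-Cre, control, Sf1-Cre, the order of Dmrt1 itself. Of all 6612 tested genes with the Dhh-Cre mean above, 62.6% and 12.3% had these orders. These orders are descriptions, with no test.

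Genes of gonadal sex determination divided between the drivers. Of 24 tested, 13 passed. Higher in Sf1-Cre were Foxl2, Foxl2os, Nr5a2, Fst, Ptgds, Nr5a1 and Sox4 (29.2% of the 24, against 12.9% of all genes). Higher in Dhh-Cre were Dmrt1, Sox8, Nr0b1, Sox9, Dhh and Wt1 (25%, against 11.8% of all genes). The list median was 0.22. The calls of Dmrt1, Sox8, Foxl2os, Nr0b1, Sox9 and Foxl2 held when any 1 of the 8 arrays was left out, and the other 7 calls were lost without at least 1 array. Averaged over all probe sets of each gene, Sox4, Dhh and Fst did not pass (adjusted p = 0.741, 0.0729 and 0.0629, limma), and neither did Nr5a1. The number higher in Sf1-Cre was 2 without Dhh-Cre array 2, 3 without Sf1-Cre array 3, and 4 without Dhh-Cre array 1, without Sf1-Cre array 2 or without either control. The plot of the 13 genes by array shows the 2 sets.

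**Figure D1:**
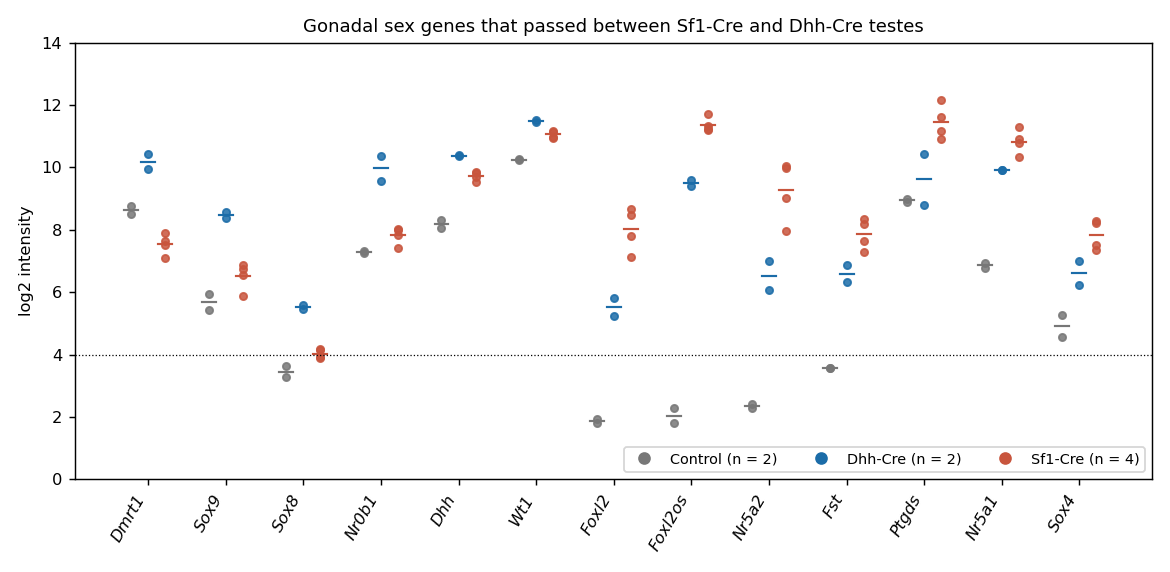
Log2 intensity of the 13 gonadal sex genes that passed between the drivers, 1 point per array and a bar at each group mean, with the floor of log2 4 dotted. The 4 Sf1-Cre and 2 Dhh-Cre arrays do not overlap for any of the 13, as for every gene that passed. Foxl2 lies at 5.82 and 5.23 in Dhh-Cre against 1.95 and 1.80 in the controls.

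Foxl2, the transcription factor of granulosa cell identity, stood at 5.82 and 5.23 in Dhh-Cre, 7.13, 7.79, 8.68 and 8.49 in Sf1-Cre and 1.95 and 1.80 in the controls. It was thus above the floor in both mutant groups and under it in both controls, and higher in every Sf1-Cre array than in either Dhh-Cre array, by 2.49 ± 0.42 (adjusted p = 0.00599, 5.64-fold). The mean of its probe sets differed by 1.34 (adjusted p = 0.00926). Foxl2os, a noncoding transcript that starts beside Foxl2 on the opposite strand, stood at 9.60 and 9.39 in Dhh-Cre and 11.19, 11.25, 11.71 and 11.33 in Sf1-Cre, against 2.30 and 1.79 in the controls. Its difference of 1.87 ± 0.21 (adjusted p = 0.00121) had the direction of Foxl2. The start sites of the pair lie 297 bases apart in opposite directions, and the 250 bases before each start, taken from RefSeq on build GRCm38.p6, share 204 bases. The Foxl2 window, chr9:98955357-98955606 on the plus strand, is printed because the pair moved together, with the bases shared with the Foxl2os window in capitals.
Foxl2: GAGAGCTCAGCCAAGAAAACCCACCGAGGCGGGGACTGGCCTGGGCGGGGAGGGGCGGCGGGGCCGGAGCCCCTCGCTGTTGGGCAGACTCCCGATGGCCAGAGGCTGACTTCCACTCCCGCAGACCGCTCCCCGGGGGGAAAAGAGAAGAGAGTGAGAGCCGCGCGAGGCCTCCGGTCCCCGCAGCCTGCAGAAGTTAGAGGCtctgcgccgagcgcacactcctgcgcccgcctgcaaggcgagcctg

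Sox9, the Sertoli cell fate factor, stood at 8.37 and 8.58 in Dhh-Cre, 5.88, 6.87, 6.76 and 6.56 in Sf1-Cre and 5.45 and 5.94 in the controls. Its difference was -1.96 ± 0.29 (adjusted p = 0.00372), and Sf1-Cre array 1 was the only mutant array not above both controls. The mean of its probe sets differed by less, at -0.76 (adjusted p = 0.00902). Sox8, which acts beside Sox9, stood at 5.46 and 5.60 in Dhh-Cre, where it was above the floor, and at 4.14, 3.93, 4.17 and 3.90 in Sf1-Cre, around the floor (-1.50 ± 0.16, adjusted p = 0.00108). Nr0b1, an X-linked nuclear receptor also called Dax1 that opposes Sf1, stood at 9.57 and 10.38 in Dhh-Cre, 7.82, 7.43, 8.01 and 8.02 in Sf1-Cre and 7.32 and 7.25 in the controls (-2.15 ± 0.26, adjusted p = 0.00154). The Sf1-Cre arrays were close to control for Nr0b1, and the Dhh-Cre arrays above both.

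The genes whose promoters drove Cre also differed, but by less. Dhh stood at 10.37 and 10.39 in Dhh-Cre, 9.86, 9.70, 9.82 and 9.53 in Sf1-Cre and 8.33 and 8.07 in the controls, a difference of -0.65 ± 0.15 (adjusted p = 0.0203) that did not pass without Dhh-Cre array 1 or 2 or Sf1-Cre array 2 (adjusted p = 0.0523 to 0.108). Nr5a1 stood at 9.91 and 9.92 in Dhh-Cre and 10.34, 10.79, 10.90 and 11.29 in Sf1-Cre, a difference of 0.92 ± 0.24 (adjusted p = 0.03) that did not pass without control array 1 or 2 or Dhh-Cre array 1 or 2 or Sf1-Cre array 2 or 3 (adjusted p = 0.0528 to 0.145). Neither gene passed as the mean of its probe sets. Both genes exceeded the control level in all 6 mutant arrays. Nr5a2, a relative of Nr5a1 that granulosa cells use, stood at 6.99 and 6.07 in Dhh-Cre and 7.98, 9.04, 10.05 and 9.995 in Sf1-Cre, with 2.31 and 2.41 in the controls (2.73 ± 0.58, adjusted p = 0.0138), and did not pass without Dhh-Cre array 2 (adjusted p = 0.0858). Ptgds, prostaglandin D synthase, which acts beside Sox9 in the fetal testis, was higher in Sf1-Cre, at 10.44 and 8.80 in Dhh-Cre and 12.15, 11.15, 11.61 and 10.93 in Sf1-Cre (1.84 ± 0.48, adjusted p = 0.0283), but not without control array 1 or 2 or Dhh-Cre array 2 or Sf1-Cre array 2 or 3 (adjusted p = 0.0512 to 0.16). Wt1, a factor of the early gonad, differed little (-0.44 ± 0.13, adjusted p = 0.0497) and did not pass without control array 1 or 2 or Dhh-Cre array 1 or 2 or Sf1-Cre array 1, 2, 3 or 4 (adjusted p = 0.0681 to 0.227). Sox4 passed at 1.23 ± 0.36 (adjusted p = 0.043), but not without control array 1 or 2 or Dhh-Cre array 1 or 2 or Sf1-Cre array 2 or 3 (adjusted p = 0.0544 to 0.282) or with values under log2 4 set to 4 (adjusted p = 0.055), and 3 of its 4 other probe sets had the opposite sign. Members of the set that did not pass between the drivers include Gata4 at 0.40 ± 0.26 (adjusted p = 0.304), Esr1, the oestrogen receptor gene, at 0.41 ± 0.13 (adjusted p = 0.0614), and the ovarian signalling genes Wnt4 at -0.74 ± 0.51 (adjusted p = 0.329) and Rspo1 at 0.25 ± 0.22 (adjusted p = 0.449).

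Sertoli cell genes were mostly higher in the arrays labelled Dhh-Cre. Of 23 tested, 12 (52.2%) passed as higher in Dhh-Cre and 3 (13%) as higher in Sf1-Cre, against 11.8% and 12.9% of all genes. Sox9, Sox8, Wt1 and Ptgds are among these and were already counted among the gonadal sex genes. The median difference was -0.51 against 0.02 for all genes. Without Dhh-Cre array 1, 8 members passed as higher in Dhh-Cre and 1 as higher in Sf1-Cre, and without Dhh-Cre array 2 these numbers were 9 and 0. The 3 higher in Sf1-Cre became 1 without Sf1-Cre array 2, Sf1-Cre array 3 or either control. Of the 23, 19 stood above the floor in all 8 arrays, and Hopx, Rhox5, Sox8 and Fshr did not. Clu, encoding clusterin, stood at 13.75 and 13.64 in Dhh-Cre and 13.54, 13.44, 13.37 and 13.34 in Sf1-Cre (-0.28 ± 0.14, adjusted p = 0.178). Amh, a hormone of immature Sertoli cells, was below the filter.

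The largest differences in the list concerned X-linked genes of mature Sertoli cells. Tsx, a testis-specific gene beside the X-inactivation centre, stood at 11.68 and 12.39 in Dhh-Cre, 11.17 and 11.15 in the controls and 5.23, 4.95, 5.07 and 4.52 in Sf1-Cre, a difference of -7.09 ± 0.26 (adjusted p = 6.98e-06, 136-fold). Rhox5, an androgen-dependent homeobox gene, stood at 7.93 and 9.03 in Dhh-Cre, 7.97 and 8.08 in the controls and 3.68, 3.09, 3.22 and 3.79 in Sf1-Cre, under the floor in all 4 of the latter (-5.03 ± 0.33, adjusted p = 0.000124, at least 22.3-fold). For both genes the Dhh-Cre arrays lay near or above the control level and the Sf1-Cre arrays far under it. Hopx, a homeodomain cofactor on chromosome 5, had the order of Tsx, at 5.75 and 7.04 in Dhh-Cre, 4.36 and 4.56 in the controls and 3.49, 3.59, 3.64 and 3.81 in Sf1-Cre (-2.76 ± 0.32, adjusted p = 0.00132).

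A list of Sertoli genes that respond to androgen gave 4 of 7 members higher in Dhh-Cre and 0 higher in Sf1-Cre, and the count of 4 held when any 1 array was left out. The 4 members are 57.1% of the list, against 11.8% of all genes. The median difference was -2.50, and -0.59 with all values under log2 4 set to 4. Besides Rhox5, one was Tubb3, a neuron-type beta-tubulin, at 10.08 and 9.69 in Dhh-Cre, 6.05, 5.74, 6.59 and 6.90 in Sf1-Cre and 6.61 and 6.65 in the controls (-3.56 ± 0.32, adjusted p = 0.000463, 11.8-fold). Drd4, a dopamine receptor gene, stood at 8.53 and 8.64 in Dhh-Cre, 5.49, 6.09, 6.19 and 6.38 in Sf1-Cre and 6.08 and 6.57 in the controls (-2.55 ± 0.26, adjusted p = 0.000839). For both genes the controls lay near Sf1-Cre and the Dhh-Cre arrays above them. Defb45, a defensin gene, stood at 4.41 and 4.78 in Dhh-Cre and 2.10, 2.10, 1.92 and 2.26 in Sf1-Cre (-2.50 ± 0.17, floored -0.59, adjusted p = 0.000134). Eppin, a protease inhibitor gene, stood at 11.06 and 11.60 in Dhh-Cre and 10.47, 10.77, 10.85 and 11.03 in Sf1-Cre and did not pass (-0.55 ± 0.21, adjusted p = 0.0974), and neither did Fhod3 (0.57 ± 0.26, adjusted p = 0.145) or Cldn3 (-0.57 ± 0.33, floored -0.30, adjusted p = 0.247). Of the 7 genes, 6 have a RefSeq window of the 250 bases before the start, and 1 of the 6, Rhox5, holds an androgen receptor half-site (AGAACA, either strand), which 16.1% of 32817 such windows hold. The Rhox5 window, chrX:37754358-37754607 on the plus strand of GRCm38.p6, is shown with that match in capitals.
Rhox5: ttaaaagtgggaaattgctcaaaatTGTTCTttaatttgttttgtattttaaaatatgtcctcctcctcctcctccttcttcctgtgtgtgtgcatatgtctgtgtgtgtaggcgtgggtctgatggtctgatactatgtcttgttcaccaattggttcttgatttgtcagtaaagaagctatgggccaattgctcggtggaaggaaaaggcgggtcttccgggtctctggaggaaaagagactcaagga

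Granulosa cell genes that passed were mostly higher in Sf1-Cre. Of 20 tested, 7 (35%) passed as higher in Sf1-Cre and 1 (5%), Nr0b1, as higher in Dhh-Cre, against 12.9% and 11.8% of all genes. Of these, Foxl2, Foxl2os, Nr5a2, Fst and Nr0b1 were already counted among the gonadal sex genes, so the lists are no separate support. The median difference was 0.86. The number higher in Sf1-Cre was 6 without Dhh-Cre array 1 and 5 without Dhh-Cre array 2, and it was 12 without Sf1-Cre array 1. Of the 20 members, 8 reached the floor in the mean of the controls. Cyp19a1, which encodes aromatase, is not analysed here.

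Sfrp4, which encodes a secreted Wnt inhibitor made by ovarian granulosa and luteal cells, gave the largest difference of the list. It stood at 7.32 and 6.43 in Dhh-Cre, 11.02, 11.35, 11.37 and 11.71 in Sf1-Cre and 2.81 and 2.68 in the controls, so that it was above the floor in all 6 mutant arrays and far higher in each of the Sf1-Cre arrays (4.48 ± 0.28, adjusted p = 8.55e-05, 22.4-fold). Hsd17b1, the granulosa cell enzyme that makes oestradiol from oestrone, stood at 6.53 and 5.87 in Dhh-Cre and 8.23, 8.99, 9.36 and 8.31 in Sf1-Cre against 2.71 and 2.53 in the controls (2.53 ± 0.35, adjusted p = 0.00285). Fst, encoding the activin-binding protein follistatin, stood at 6.87 and 6.33 in Dhh-Cre and 7.29, 8.33, 8.19 and 7.65 in Sf1-Cre (1.27 ± 0.31, adjusted p = 0.0227), a call lost without Dhh-Cre array 1 or 2 or Sf1-Cre array 3 (adjusted p = 0.0521 to 0.134). Some granulosa genes did not pass, among them Fshr, the receptor of follicle-stimulating hormone, at 6.10 and 6.38 in Dhh-Cre and 5.91, 6.94, 7.38 and 7.84 in Sf1-Cre (0.78 ± 0.46, adjusted p = 0.26), and Inha, encoding an inhibin subunit (0.36 ± 0.13, adjusted p = 0.088). The plot of list members by list sets the Sertoli and granulosa lists beside the others.

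**Figure D2:**
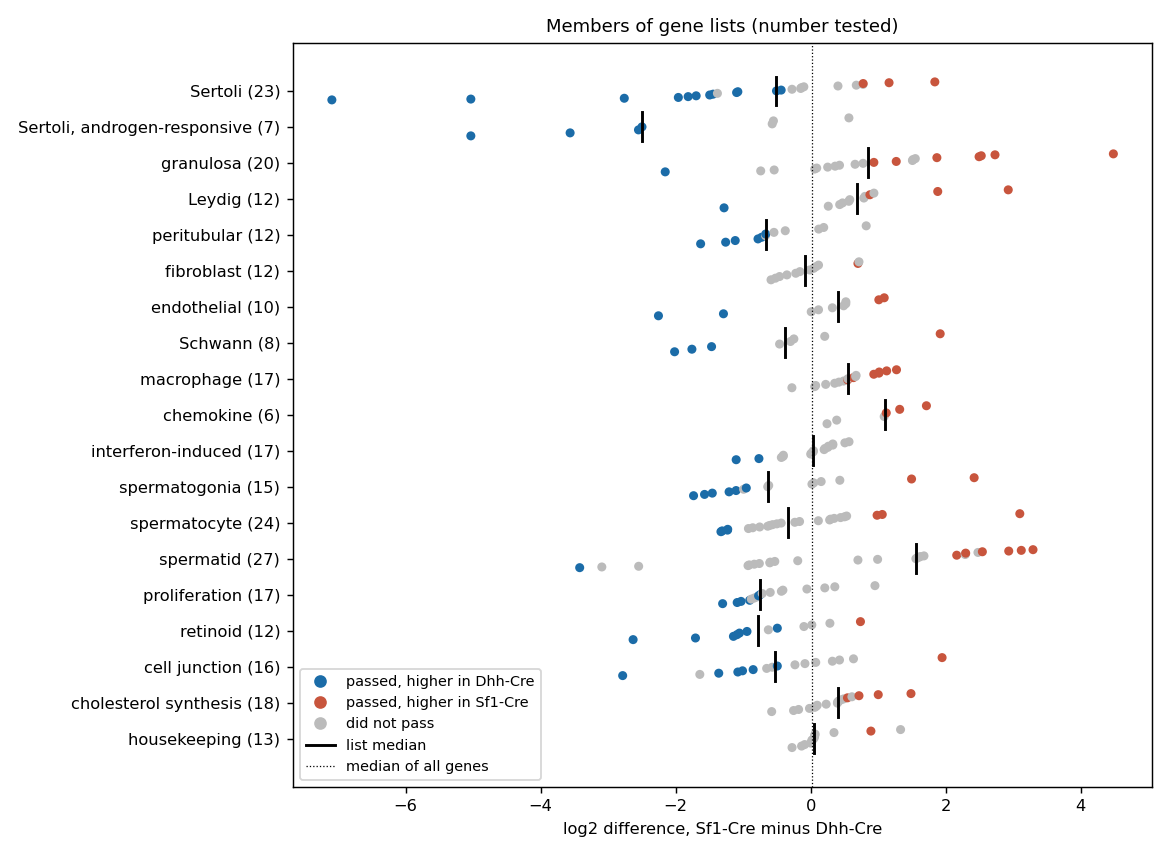
Difference of each tested member of 19 gene lists (log2, Sf1-Cre minus Dhh-Cre), with the number tested in brackets, coloured by whether it passed and in which direction, with a bar at the list median and the median of all genes (0.02) dotted. The Sertoli list (median -0.51) and the androgen-responsive list (-2.50) lie mostly to the left, and the granulosa (0.86), macrophage (0.55) and chemokine (1.10) lists mostly to the right. The retinoid (-0.78), proliferation (-0.75), peritubular (-0.67), spermatogonia (-0.64) and cell junction (-0.53) medians lie further left than the Sertoli median. The spermatid (1.56) and Leydig (0.68) medians lie further right than the macrophage median.

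The 15 largest differences in each direction, outside the germ cell lists and among genes with a group mean of at least log2 6, were of different kinds. They were ranked on the log2 values as deposited, without a floor. Of the 15 higher in Dhh-Cre, 6 lie on the X chromosome, and in 12 every control array lay above every Sf1-Cre array. In 7 of the 15 the Sf1-Cre mean was under the floor. Of the 15 higher in Sf1-Cre, 1, Xaf1, has a probe set of the opposite sign and is treated apart. Of the other 14, none lies on the X chromosome, in 10 every control array lay above every Dhh-Cre array, and in 7 the Dhh-Cre mean was under the floor. With values under log2 4 set to 4, the differences ranged from -7.09 to -4.36 in the first set and from 2.88 to 4.68 among the 14.

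Lpar3, which encodes a lysophosphatidic acid receptor, was read only in Dhh-Cre and the controls. It stood at 10.41 and 10.54 in Dhh-Cre, 7.93 and 8.07 in the controls and 2.03, 2.27, 2.10 and 2.25 in Sf1-Cre (-8.31 ± 0.14, adjusted p = 1.88e-07), at least 88.9-fold higher in Dhh-Cre. The Sf1-Cre arrays were all under the floor. Wfdc18, a gene of a secreted protein with a whey acidic protein domain, behaved otherwise against control, at 12.15 and 11.78 in Dhh-Cre, 4.23 and 4.24 in the controls and 5.47, 4.93, 4.69 and 5.34 in Sf1-Cre (-6.86 ± 0.24, adjusted p = 6.98e-06, 116-fold), so that only the Dhh-Cre arrays stood far from the others. Frzb, a secreted Wnt antagonist gene, stood at 8.86 and 8.98 in Dhh-Cre, 6.17 and 6.42 in the controls and 4.39, 4.11, 4.21 and 4.37 in Sf1-Cre (-4.65 ± 0.15, adjusted p = 6.08e-06). It lay above control in one mutant group and below it in the other.

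The other 4 X-linked genes among the 15, besides Tsx and Rhox5, were Tbx22, Dmrtc1a, Pcsk1n and Mageb16. Tbx22, a T-box factor gene, stood at 8.37 and 9.26 in Dhh-Cre and 3.34, 2.35, 2.79 and 2.45 in Sf1-Cre (-6.08 ± 0.41, adjusted p = 0.000136). Dmrtc1a, a gene of the DMRT family, stood at 10.31 and 10.54 in Dhh-Cre and 5.01, 4.73, 4.95 and 5.35 in Sf1-Cre (-5.42 ± 0.23, adjusted p = 1.78e-05). Pcsk1n, which encodes an inhibitor of a proprotein convertase, and Mageb16 differed by -5.07 ± 0.21 and -5.05 ± 0.27 (adjusted p = 1.18e-05 and 4.99e-05). All of them had control levels above every Sf1-Cre array and below every Dhh-Cre array. The remaining genes of the set were Cep85, Ang, Emb, Sh3gl2, Ncmap and Atp13a4, with differences between -5.88 and -4.47. Of these, the call of Cep85, whose Sf1-Cre array 4 stood at 6.81 against 2.85 to 3.26 in the other 3, was lost without Dhh-Cre array 1 (adjusted p = 0.0527).

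The set toward Sf1-Cre held many genes that are high in the control testis. Ptchd3, Glipr1l1, Lyzl1, Tmem225, Clec4g, Tex24, Asb4, Zswim2, Pdilt and Tekt4 stood at log2 9.37 or above in both controls, between 6.26 and 10.75 in the Sf1-Cre arrays and between 1.95 and 6.45 in the Dhh-Cre arrays. Several of them, such as Tekt4 of the sperm flagellum, Pdilt, a testis chaperone gene, and Lyzl1, a lysozyme-like gene, are known from spermatids although the fixed lists do not hold them. That their Sf1-Cre and Dhh-Cre arrays did not overlap was required by the rule of the set. Without Dhh-Cre array 1 the calls of Lyzl1, Tmem225 and Pdilt were lost, with differences of 3.18, 3.19 and 3.00. The other 5 genes, Xaf1, Sfrp4, Clec7a, Gpnmb and Tlr1, had control levels under 5.

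**Figure D3:**
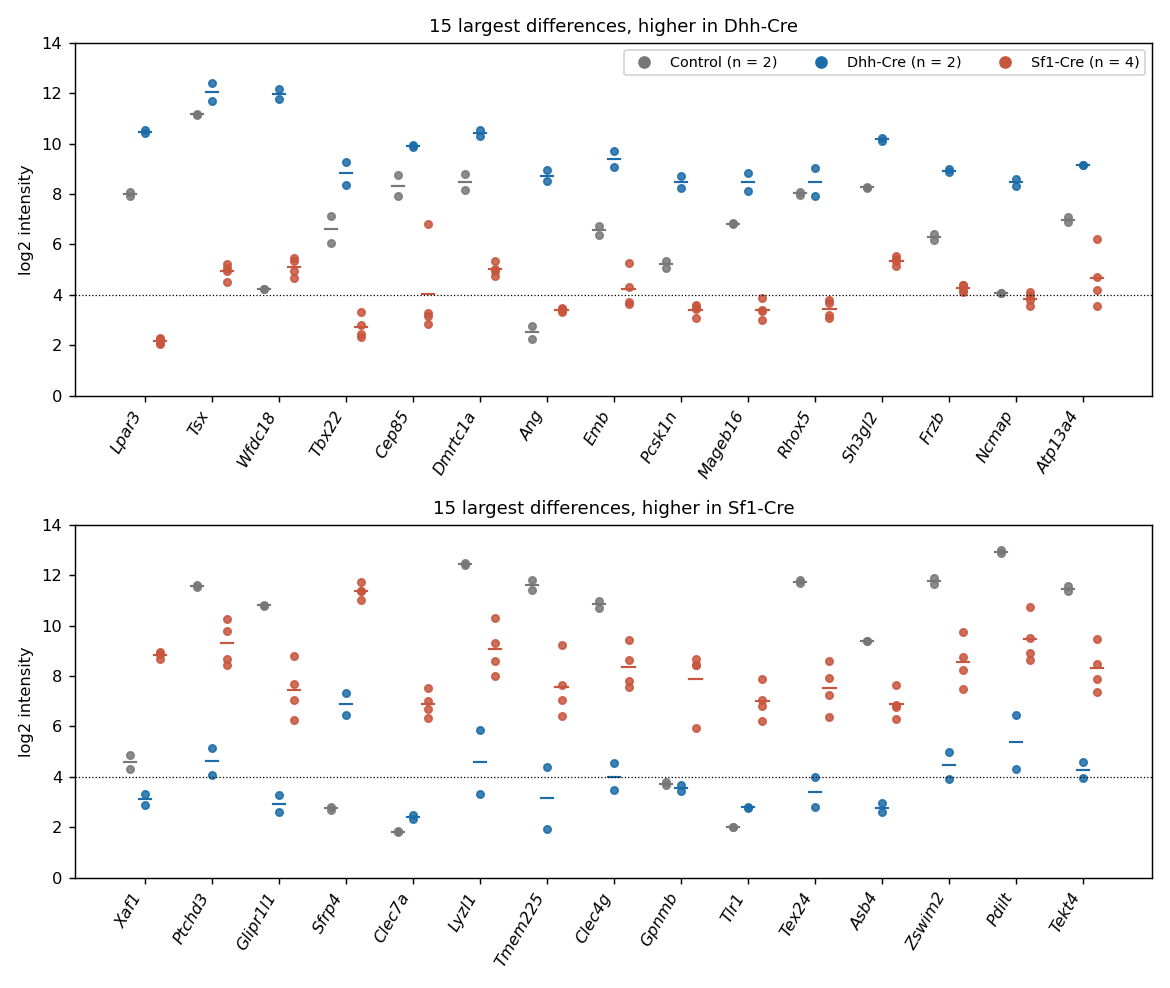
Log2 intensity of the 15 genes with the largest differences in each direction outside the germ cell lists, 1 point per array and a bar at each group mean, with the floor of log2 4 dotted and Xaf1 by its probe set of higher mean. In the upper panel 12 genes have every control array above every Sf1-Cre array, and in the lower panel 10 genes have every control array above every Sf1-Cre array and 11 above every Dhh-Cre array.

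Xaf1, a gene of an interferon-induced protein, gave opposite results by probe set. The probe set with the higher mean stood at 3.33 and 2.88 in Dhh-Cre, 4.88 and 4.32 in the controls and 8.93, 8.66, 8.86 and 8.86 in Sf1-Cre (5.72 ± 0.21, adjusted p = 6.98e-06). The other stood at 9.11 and 9.21 in Dhh-Cre, 3.55 and 2.81 in the controls and 3.31, 4.67, 3.46 and 3.82 in Sf1-Cre, a difference of -5.34, so no direction is given for the gene. Of the 3402 genes that passed, 1148 had another probe set above the filter, and in 143 (12.5%) of these another probe set had the opposite sign. In 7, namely Gm6958, Ssx2ip, Tsc22d4, Wee1, Xaf1, Zfp991 and Zswim5, both opposed differences were at least 2-fold.

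Germ cells of the kinds that a control testis holds give little signal in genes that were low in the controls, so these genes were examined apart. Of 1610 tested genes with a control mean under log2 4, 297 (18.4%) passed as higher in Sf1-Cre and 214 (13.3%) as higher in Dhh-Cre. Of the 12 largest such differences toward Sf1-Cre, 8 had a Dhh-Cre mean under the floor, and of the 12 largest toward Dhh-Cre, 10 had a Sf1-Cre mean under the floor. A gene with no signal in control had to reach the floor in at least 2 mutant arrays to be tested. Any 2 of the 4 Sf1-Cre arrays could meet this, but Dhh-Cre alone only with both arrays. These shares are therefore not read as a result, also not against each other. With the filter at log2 6 the shares were 31.3% for Sf1-Cre and 8.97% for Dhh-Cre. Their order did not hold throughout: 152 were higher in Sf1-Cre and 247 in Dhh-Cre with peritubular and endothelial centring, 174 and 193 without Dhh-Cre array 2, and 147 and 129 without Dhh-Cre array 1.

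Toward Sf1-Cre, 3 of the leading genes encode proteins of phagocytes. Clec7a, the beta-glucan receptor dectin-1, stood at 2.34 and 2.50 in Dhh-Cre, 1.81 and 1.85 in the controls and 6.33, 7.01, 6.70 and 7.54 in Sf1-Cre (4.47 ± 0.30, floored 2.89, adjusted p = 0.000139, at least 7.43-fold). Tlr1, a toll-like receptor gene, stood at 2.78 and 2.80 in Dhh-Cre, 2.01 and 2.01 in the controls and 6.23, 6.81, 7.06 and 7.88 in Sf1-Cre (4.20 ± 0.39, adjusted p = 0.000534). Gpnmb, a glycoprotein gene of phagocytes and osteoclasts, stood at 3.44 and 3.67 in Dhh-Cre, 3.78 and 3.66 in the controls and 5.95, 8.43, 8.42 and 8.68 in Sf1-Cre (4.32 ± 0.71, adjusted p = 0.00542). For all 3 the Dhh-Cre arrays were under the floor, as the controls were, and every Sf1-Cre array was above it.

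The other leading genes toward Sf1-Cre were mostly of other kinds. Adgrg6, an adhesion G protein-coupled receptor gene, stood at 3.09 and 2.65 in Dhh-Cre and 6.18, 6.89, 7.52 and 6.83 in Sf1-Cre (3.99 ± 0.33, adjusted p = 0.000354). Dsc3, encoding the desmosomal cadherin desmocollin 3, stood at 2.74 and 2.54 in Dhh-Cre and 5.06, 6.28, 7.73 and 7.11 in Sf1-Cre (3.91 ± 0.64, floored 2.54, adjusted p = 0.00538), and only Sf1-Cre rose above the floor. Mboat1, a lysophospholipid acyltransferase gene, was above the floor in both mutant groups, at 6.28 and 5.53 in Dhh-Cre and 9.21, 9.61, 9.76 and 10.09 in Sf1-Cre (3.76 ± 0.28, adjusted p = 0.000239). Il7r, the interleukin 7 receptor gene, stood at 2.53 and 2.76 in Dhh-Cre and 8.21, 5.69, 6.12 and 5.47 in Sf1-Cre (3.73 ± 0.70, floored 2.37, adjusted p = 0.00878) and did not pass without Dhh-Cre array 1 (adjusted p = 0.0668) or floored (adjusted p = 0.0559). Pde7b, Cuedc1, Dusp4 and Chst11 completed the set, with differences of 3.12 to 3.63.

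Toward Dhh-Cre the leading gene was Ang, which encodes the secreted ribonuclease angiogenin, at 8.94 and 8.53 in Dhh-Cre, 2.77 and 2.25 in the controls and 3.31, 3.44, 3.47 and 3.41 in Sf1-Cre (-5.33 ± 0.19, adjusted p = 6.98e-06, at least 26.6-fold). H2-Q10, a gene of a secreted class I histocompatibility antigen, stood at 7.57 and 7.02 in Dhh-Cre and 3.07, 3.05, 3.28 and 2.62 in Sf1-Cre (-4.29 ± 0.22, adjusted p = 4.35e-05). Ang belongs to a family of near-identical ribonuclease genes and H2-Q10 to a family of near-identical class I genes, so probes may cross-read. Myoz2, a gene of the muscle Z-disc, was above the floor in both mutant groups, at 10.06 and 9.64 in Dhh-Cre and 6.12, 5.83, 5.33 and 5.45 in Sf1-Cre (-4.17 ± 0.25, adjusted p = 7.9e-05). Dlk1, an imprinted gene of fetal Leydig and stromal cells, stood at 6.97 and 5.40 in Dhh-Cre and 3.38, 3.28, 3.61 and 3.58 in Sf1-Cre (-2.72 ± 0.38, adjusted p = 0.0029). Tbc1d30, Ly6h, Il17re, Bend6, Ppp2r2c, Tnfsf13os, Eras and Mapkapk3 made up the rest, with differences of -4.33 to -2.89. Of the 12 genes, 1, Eras, lies on the X chromosome.

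Leydig cells lie between the tubules, make testosterone and express Nr5a1. Of 12 Leydig genes tested, 3 (25%) passed as higher in Sf1-Cre and 1 (8.33%) as higher in Dhh-Cre, against 12.9% and 11.8% of all genes, with a median difference of 0.68. The number higher in Sf1-Cre was 1 without Dhh-Cre array 1 and 5 without Sf1-Cre array 1, and the number higher in Dhh-Cre was 0 without Dhh-Cre array 2. Sult1e1, oestrogen sulfotransferase, which inactivates oestrogens in Leydig cells, stood at 6.04 and 7.44 in Dhh-Cre, 8.91, 9.67, 9.83 and 10.25 in Sf1-Cre and 4.73 and 5.11 in the controls (2.93 ± 0.46, adjusted p = 0.00445, 7.61-fold), a call that held when any 1 array was left out. Star, which moves cholesterol into mitochondria, went the other way, at 11.51 and 11.97 in Dhh-Cre, 10.44, 10.15, 10.48 and 10.75 in Sf1-Cre and 8.52 and 9.03 in the controls (-1.28 ± 0.23, adjusted p = 0.0077), and did not pass without Dhh-Cre array 2 (adjusted p = 0.0523). Thbs2 and Hsd11b1 passed at 1.88 ± 0.43, floored 0.59 and 0.88 ± 0.23 (adjusted p = 0.0181 and 0.03), the first not passing floored (adjusted p = 0.222) or without Dhh-Cre array 1 or 2 (adjusted p = 0.0695 to 0.112) and the second not passing without control array 1 or 2 or Dhh-Cre array 1 or 2 or Sf1-Cre array 2 (adjusted p = 0.054 to 0.136). The steroid enzyme genes Cyp11a1 at 0.43 ± 0.17 (adjusted p = 0.105) and Cyp17a1 at 0.79 ± 0.36 (adjusted p = 0.152) did not pass. The defining adrenal genes Cyp11b1, Cyp11b2, Cyp21a1 and Mc2r were below the filter. The 250 bases before the start of Sult1e1 are chr5:87591612-87591861 on the minus strand of GRCm38.p6 in RefSeq. They hold 1 match to the core AAGGTCA bound by SF1 (either strand), shown in capitals. The window is printed because the gene passed between the drivers, and the match says nothing about them. Such a match is found in 4.08% of 32817 windows of this length.
Sult1e1: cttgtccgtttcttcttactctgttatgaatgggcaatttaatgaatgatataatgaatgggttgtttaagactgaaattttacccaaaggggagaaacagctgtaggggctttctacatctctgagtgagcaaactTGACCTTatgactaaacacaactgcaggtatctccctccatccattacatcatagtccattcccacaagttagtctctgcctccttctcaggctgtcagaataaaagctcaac

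Across the 27 gonadal sex genes, 18 have a RefSeq window before the start. Among these the SF1 core was found in 1 gene, Amhr2, and the DMRT-type core ACAATGT, which contains the SOX-type core ACAATG, and the forkhead core TGTTTAC in none (2.56% and 3.16% of all windows hold them). Over the tested genes with a window, the SF1 core was found in 5.33% of those higher in Sf1-Cre, 4.29% of those higher in Dhh-Cre and 3.81% of all. For the DMRT-type core these shares were 2.51%, 2.14% and 1.85%. A match describes letters only, and these windows are not the promoter fragments of the Cre transgenes.

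Contractile genes of the peritubular myoid cells, which wrap the tubule, had a median of -0.67. Against 11.8% of all genes, 6 of the 12 (50%) were higher in Dhh-Cre, and none was higher in Sf1-Cre. Only 2 of them passed without Dhh-Cre array 1, and 2 without Dhh-Cre array 2. Cnn1, encoding calponin, stood at 5.60 and 5.38 in Dhh-Cre, 4.17, 3.49, 4.005 and 3.78 in Sf1-Cre and 3.64 and 3.95 in the controls (-1.63 ± 0.21, adjusted p = 0.00235) and passed without any 1 array. Myh11, smooth muscle myosin, stood at 9.67 and 9.48 in Dhh-Cre and 8.14, 7.88, 8.72 and 8.51 in Sf1-Cre (-1.26 ± 0.24, adjusted p = 0.01), but not without Dhh-Cre array 1 (adjusted p = 0.0812). In the fibroblast list 1 of 12 members (8.33%, against 12.9% of all genes), Dcn, was higher in Sf1-Cre (0.70 ± 0.17, adjusted p = 0.0228). None was higher in Dhh-Cre, and the median was -0.09. The Dcn call was lost without Dhh-Cre array 1 or Sf1-Cre array 3 (adjusted p = 0.0501 to 0.171). Of 13 basement membrane genes, Lama4 was higher in Sf1-Cre (1.19 ± 0.27, adjusted p = 0.0178) and Lamb2 higher in Dhh-Cre (-0.72 ± 0.19, adjusted p = 0.0305). Each is 7.69% of the list, under the 12.9% and 11.8% of all genes. The Lama4 call was lost without Dhh-Cre array 1 or 2 (adjusted p = 0.0672 to 0.102), and the Lamb2 call without control array 1 or 2 or Dhh-Cre array 1 or 2 or Sf1-Cre array 2 or 4 (adjusted p = 0.0503 to 0.193).

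Endothelial genes did not move one way. Robo4, an endothelial guidance receptor, stood at 9.82 and 9.62 in Dhh-Cre, 7.27, 7.46, 7.64 and 7.50 in Sf1-Cre and 4.06 and 3.78 in the controls (-2.25 ± 0.16, adjusted p = 0.000187, 4.77-fold), and passed without any 1 array. Plvap was also higher in Dhh-Cre (-1.29 ± 0.22, floored -0.45, adjusted p = 0.00577), while Tek, an angiopoietin receptor gene, and Emcn, endomucin, were higher in Sf1-Cre (1.09 ± 0.20 and 1.01 ± 0.30, adjusted p = 0.00847 and 0.0429). Plvap was lost floored (adjusted p = 0.0503) and without Dhh-Cre array 1 (adjusted p = 0.0555), Tek without Dhh-Cre array 1 (adjusted p = 0.0761), and Emcn with values under log2 4 set to 4 (adjusted p = 0.0525) and without control array 1 or 2 or Dhh-Cre array 1 or Sf1-Cre array 2, 3 or 4 (adjusted p = 0.0702 to 0.296). The list median over 10 members was 0.41, and Pecam1, Cdh5 and Flt1, defining genes of endothelium, were below the filter.

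Schwann cells, which ensheathe nerves and make Dhh, were followed by 8 genes, with a median of -0.38. Of these, 3 (37.5%) passed as higher in Dhh-Cre and 1 (12.5%) as higher in Sf1-Cre, against 11.8% and 12.9% of all genes. The 3 became 1 without Dhh-Cre array 1, Sf1-Cre array 2 or Sf1-Cre array 3, and 1 with values under log2 4 set to 4. Sox10, their defining transcription factor, stood at 5.82 and 4.15 in Dhh-Cre, 3.49, 3.12, 3.24 and 3.05 in Sf1-Cre and 3.99 and 3.87 in the controls (-1.76 ± 0.40, floored -0.98, adjusted p = 0.0181), so that only the Dhh-Cre arrays reached the floor. Floored, it did not pass (adjusted p = 0.123). Erbb3, the neuregulin receptor of Schwann cells, stood at 7.74 and 6.32 in Dhh-Cre and 5.64, 5.56, 5.33 and 5.71 in Sf1-Cre (-1.47 ± 0.36, adjusted p = 0.0224) and was lost without Dhh-Cre array 1 or Sf1-Cre array 2 or 3 (adjusted p = 0.0526 to 0.1). Cdh19 was higher in Dhh-Cre (-2.02 ± 0.48, floored -0.23, adjusted p = 0.0219), but not floored (adjusted p = 0.19) or without Dhh-Cre array 1 or 2 or Sf1-Cre array 2 or 3 (adjusted p = 0.0506 to 0.106). Ngfr, the low-affinity nerve growth factor receptor, was higher in Sf1-Cre (1.92 ± 0.43, adjusted p = 0.0168), except without Dhh-Cre array 2 (adjusted p = 0.107) or as the mean of its probe sets (adjusted p = 0.057).

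Macrophage genes were higher in Sf1-Cre in 7 of 17 members (41.2%, against 12.9% of all genes) and higher in Dhh-Cre in none. The median was 0.55. The 7 became 2 without Dhh-Cre array 1 and 0 without the 3 arrays of high Spink8. Lyz2, lysozyme, stood at 11.25 and 11.61 in Dhh-Cre, 12.51, 12.47, 12.32 and 12.49 in Sf1-Cre and 8.25 and 8.09 in the controls (1.02 ± 0.15, adjusted p = 0.00385), and passed without any 1 array. Cd68, a lysosomal protein of macrophages, stood at 7.92 and 8.36 in Dhh-Cre and 9.27, 9.04, 9.22 and 9.54 in Sf1-Cre (1.13 ± 0.19, adjusted p = 0.00604), but not without Dhh-Cre array 1 (adjusted p = 0.056). For Lyz2 all 6 mutant arrays lay far above the controls. Centred on peritubular and endothelial genes, 2 of the 7 passed. Csf1r, the receptor that defines the lineage, was close to the threshold at 0.67 ± 0.22 (adjusted p = 0.0611).

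Chemokine genes passed as higher in Sf1-Cre in 3 of 6 members, a count that held when any 1 array was left out, and in none as higher in Dhh-Cre, with a median of 1.10. Cxcl10, a chemokine that draws T cells, stood at 3.71 and 3.66 in Dhh-Cre, 4.97, 4.90, 5.21 and 4.92 in Sf1-Cre and 3.63 and 3.68 in the controls (1.32 ± 0.14, adjusted p = 0.000984, at least 2-fold), and so was above the floor only in Sf1-Cre. Ccl12, which draws monocytes, stood at 6.88 and 6.47 in Dhh-Cre, 8.44, 8.33, 8.13 and 8.64 in Sf1-Cre and 2.09 and 1.24 in the controls (1.71 ± 0.27, adjusted p = 0.00439). Ccl5, which draws T cells and monocytes, stood at 3.56 and 3.23 in Dhh-Cre, 4.29, 4.45, 4.69 and 4.62 in Sf1-Cre and 5.01 and 4.73 in the controls (1.12 ± 0.18, floored 0.51, adjusted p = 0.00492). The 3 genes are 50% of the 6, against 12.9% of all genes.

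Lymphocyte genes had a median of 0.94. They passed as higher in Sf1-Cre in 4 of 10 members (40%, against 12.9% of all genes), Ccl5, Ptprc, Ighm and Cd3d. Of these 1 passed without Dhh-Cre array 1 and 1 without Dhh-Cre array 2, 2 passed without Sf1-Cre array 3 or either control, and none passed with peritubular and endothelial centring. Cd3g, Cd8a, Cd4, Cd79a and Ms4a1, which define T and B cells, were below the filter. Interferon-induced genes did not share this direction: none of 17 was higher in Sf1-Cre, and 2 (11.8%, the share of all genes that were) were higher in Dhh-Cre, Usp18 (-0.77 ± 0.15, adjusted p = 0.0109) and Ifi27l2a (-1.10 ± 0.30, adjusted p = 0.0337). The list median was 0.04. The Usp18 call was lost without Dhh-Cre array 1 (adjusted p = 0.0825), and the Ifi27l2a call without control array 1 or 2 or Dhh-Cre array 1 or 2 or Sf1-Cre array 2 or 3 (adjusted p = 0.0504 to 0.159). Of class II antigen presentation genes 1 of 5 (20%, against 12.9% of all genes), H2-Eb1, was higher in Sf1-Cre (0.56 ± 0.15, adjusted p = 0.0272). It did not pass without Sf1-Cre array 2 or 3 (adjusted p = 0.0694 and 0.0595, limma), nor without Dhh-Cre array 1 or 2, at 0.70 and 0.43. Of complement genes 1 of 5 (20%), C2, was higher in Sf1-Cre (0.58 ± 0.14, adjusted p = 0.0211). The C2 call was lost without Dhh-Cre array 1 or 2, at 0.60 and 0.57.

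Retinoic acid, made in the testis by Sertoli and germ cells, starts meiosis. Of 12 retinoid genes 7 (58.3%) passed as higher in Dhh-Cre and 1 (8.33%) as higher in Sf1-Cre, against 11.8% and 12.9% of all genes. The median was -0.78. The 7 became 4 without Dhh-Cre array 2, and the 1 higher in Sf1-Cre, Aldh1a2, passed only with all 8 arrays or without Sf1-Cre array 1, and not with values under log2 4 set to 4. Stra6, the retinol uptake receptor, stood at 5.38 and 5.07 in Dhh-Cre, 2.50, 2.47, 2.74 and 2.65 in Sf1-Cre and 3.33 and 3.81 in the controls (-2.63 ± 0.19, floored -1.22, adjusted p = 0.000177), above the floor only in Dhh-Cre. Crabp1, a retinoic acid binding protein, stood at 11.69 and 11.31 in Dhh-Cre, 9.33, 10.01, 9.99 and 9.85 in Sf1-Cre and 8.82 and 8.92 in the controls (-1.71 ± 0.22, adjusted p = 0.00228). Rdh10, the dehydrogenase of the first step of synthesis, stood at 7.74 and 7.43 in Dhh-Cre and 6.34, 6.53, 6.49 and 6.74 in Sf1-Cre (-1.05 ± 0.17, adjusted p = 0.00463). The calls of these 3 genes held when any 1 array was left out.

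Cell junction genes, which include those of the Sertoli cell barrier, were higher in Dhh-Cre in 6 of 16 members and higher in Sf1-Cre in 1, with a median of -0.53, and 4 of the 6 passed without Dhh-Cre array 1. Ocln, encoding occludin, stood at 4.85 and 5.31 in Dhh-Cre, 2.18, 2.10, 2.33 and 2.57 in Sf1-Cre and 3.63 and 3.17 in the controls (-2.78 ± 0.22, floored -1.08, adjusted p = 0.000262, at least 2.11-fold), under the floor in all 4 Sf1-Cre arrays and both controls. Cldn11, the main claudin of Sertoli cells, stood at 11.72 and 11.72 in Dhh-Cre, 10.70, 10.81, 10.80 and 10.26 in Sf1-Cre and 10.86 and 10.78 in the controls (-1.08 ± 0.18, adjusted p = 0.00609). Jam3 (-1.36 ± 0.20, adjusted p = 0.00383) and Cgn, cingulin (-1.01 ± 0.17, adjusted p = 0.00577), were higher in Dhh-Cre as well. The 6 are 37.5% of the list and the 1 is 6.25%, against 11.8% and 12.9% of all genes.

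Of 28 genes of TGF-beta, activin and BMP signalling, 3 (10.7%) passed as higher in Sf1-Cre and 5 (17.9%) as higher in Dhh-Cre, against 12.9% and 11.8% of all genes, with a median of 0.28. The ligand gene Tgfb3 stood at 8.57 and 7.90 in Dhh-Cre, 6.64, 6.34, 6.64 and 6.66 in Sf1-Cre and 5.25 and 4.80 in the controls (-1.66 ± 0.23, adjusted p = 0.00269), and Tgfb1 at 5.12 and 4.95 in Dhh-Cre and 3.74, 3.73, 4.17 and 3.97 in Sf1-Cre (-1.13 ± 0.17, adjusted p = 0.0037). The receptor gene Bmpr1b was higher in Sf1-Cre (1.47 ± 0.34, floored 0.94, adjusted p = 0.0182), except without Dhh-Cre array 2 (adjusted p = 0.0851). Without Dhh-Cre array 1, 1 gene was higher in Sf1-Cre and 2 in Dhh-Cre, and the number higher in Sf1-Cre was 1 without Sf1-Cre array 3 and 7 without Sf1-Cre array 1. Of 20 Wnt genes, 2 (10%) were higher in Sf1-Cre, Sfrp4 among them, and 4 (20%) higher in Dhh-Cre, with a median of 0.08. Dkk3, a secreted protein of the Dickkopf family, stood at 6.95 and 7.16 in Dhh-Cre and 5.26, 4.67, 5.51 and 5.75 in Sf1-Cre (-1.76 ± 0.28, adjusted p = 0.00507). With either Dhh-Cre array left out, 1 Wnt gene was higher in Sf1-Cre and 2 in Dhh-Cre, and without Sf1-Cre array 4, 4 were higher in Sf1-Cre.

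Hedgehog pathway genes gave little, with 20% higher in Dhh-Cre, against 11.8% of all genes, and none higher in Sf1-Cre. Of 10, Dhh and Gli3 were higher in Dhh-Cre, the latter at -0.82 ± 0.22 (adjusted p = 0.0299), which did not pass without Dhh-Cre array 1 or 2 or Sf1-Cre array 3 (adjusted p = 0.051 to 0.162). The responsive genes Gli1 at -0.34 ± 0.20 (adjusted p = 0.248) and Ptch1 at -0.27 ± 0.18 (adjusted p = 0.322) did not pass. The lists that follow gave 22.2% (cholesterol synthesis, Sf1-Cre), 35.3% (proliferation, Dhh-Cre) and 7.69% (housekeeping, Sf1-Cre). Of all genes, 12.9% were higher in Sf1-Cre and 11.8% in Dhh-Cre. Cholesterol synthesis genes were higher in Sf1-Cre in 4 of 18 members, 0 without Dhh-Cre array 1 and 2 with peritubular and endothelial centring, with a median of 0.40, and Hsd17b7, which serves both sterol synthesis and oestradiol formation, led them (1.49 ± 0.24, adjusted p = 0.00548). Proliferation genes were higher in Dhh-Cre in 6 of 17, 0 without Dhh-Cre array 1 and 3 without Sf1-Cre array 2 or 3, with Mki67 at 11.23 and 11.04 in Dhh-Cre and 10.26, 10.14, 9.88 and 10.14 in Sf1-Cre (-1.03 ± 0.18, adjusted p = 0.00673). Of 13 housekeeping genes 1, Gusb, passed, higher in Sf1-Cre (0.89 ± 0.23, adjusted p = 0.0261) but not without Dhh-Cre array 1 or 2 or Sf1-Cre array 3 (adjusted p = 0.061 to 0.152).

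Germ cell signal as a whole overlapped between the drivers. The mean log2 level of 66 germ cell genes was 6.64 and 7.54 in Dhh-Cre, 7.83, 7.45, 7.003 and 6.68 in Sf1-Cre and 10.2 in both controls. The 27 spermatid genes tested had a median of 1.56. Against 12.9% and 11.8% of all genes, 6 (22.2%) passed as higher in Sf1-Cre and 1 (3.7%) as higher in Dhh-Cre. Without Dhh-Cre array 1 these numbers were 0 and 6, and without Dhh-Cre array 2 they were 10 and 0, so the direction of the count rests on which Dhh-Cre array is used. Without Sf1-Cre array 4, 11 were higher in Sf1-Cre. Centred on peritubular and endothelial genes, 8 were higher in Sf1-Cre and 5 in Dhh-Cre. Crem, a regulator of spermatid genes, stood at 5.31 and 6.29 in Dhh-Cre and 10.15, 9.24, 8.49 and 7.81 in Sf1-Cre (3.12 ± 0.60, adjusted p = 0.00943), but not without Dhh-Cre array 1 (adjusted p = 0.0843) or as the mean of its probe sets (adjusted p = 0.0641). Ccna1, the cyclin of late meiosis, stood at 5.95 and 5.38 in Dhh-Cre, 9.73, 8.79, 8.35 and 8.17 in Sf1-Cre and 11.12 and 10.89 in the controls (3.10 ± 0.42, adjusted p = 0.00253), and passed without any 1 array.

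**Figure D4:**
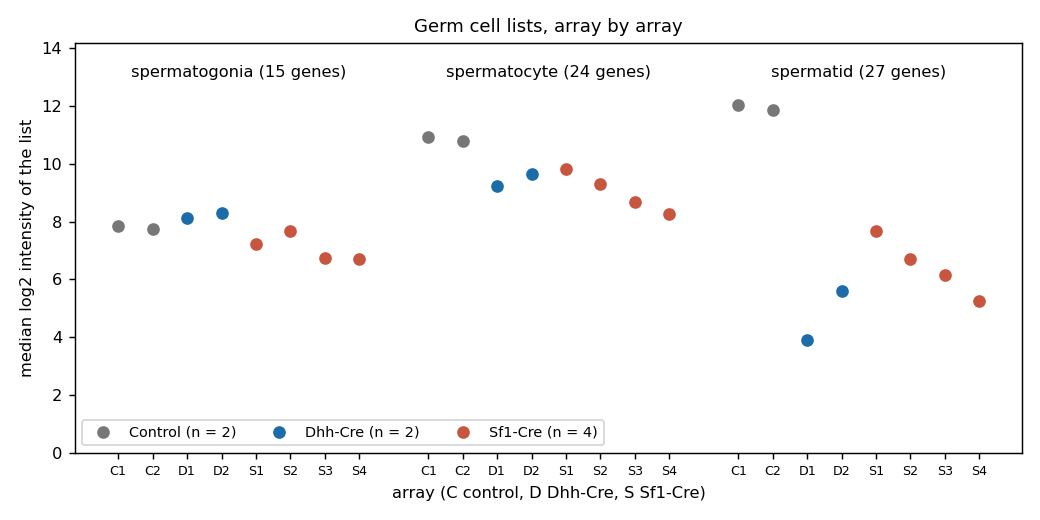
Median log2 intensity of the spermatogonia, spermatocyte and spermatid lists in each array (C control, D Dhh-Cre, S Sf1-Cre, numbered by replicate). The spermatogonia medians are 8.11 and 8.31 in Dhh-Cre and 6.72 to 7.67 in Sf1-Cre, while the spermatid medians are 3.89 and 5.59 in Dhh-Cre and 5.25 to 7.68 in Sf1-Cre, which overlap.

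Spermatogonial genes passed more often as higher in Dhh-Cre than as higher in Sf1-Cre. Of 15, 6 (40%) passed as higher in Dhh-Cre and 2 (13.3%) as higher in Sf1-Cre, against 11.8% and 12.9% of all genes, with a median of -0.64, and 4 of the 6 passed without Dhh-Cre array 1 and 4 without Dhh-Cre array 2. Stra8, which germ cells switch on in response to retinoic acid, stood at 10.80 and 10.21 in Dhh-Cre, 9.31, 9.50, 9.48 and 9.33 in Sf1-Cre and 7.94 and 7.76 in the controls (-1.10 ± 0.19, adjusted p = 0.00608). Sohlh1, a spermatogonial transcription factor, stood at 5.26 and 4.33 in Dhh-Cre and 3.08, 3.34, 3.21 and 3.27 in Sf1-Cre (-1.57 ± 0.24, floored -0.80, adjusted p = 0.0044). Kit, a receptor of differentiating spermatogonia that Leydig cells also make, went the other way, at 3.61 and 3.54 in Dhh-Cre and 5.32, 6.01, 6.03 and 6.64 in Sf1-Cre against 3.40 and 3.03 in the controls (2.42 ± 0.32, adjusted p = 0.00247), above the floor only in Sf1-Cre. Spermatocyte genes passed at shares nearer to those of all genes. Of 24, 4 (16.7%) were higher in Dhh-Cre, led by Tex11 (-1.31 ± 0.16, adjusted p = 0.0017) and Prdm9 (-1.23 ± 0.16, adjusted p = 0.00249), and 3 (12.5%) in Sf1-Cre, with a median of -0.34. With either Dhh-Cre array left out, these numbers were 3 and 1, the number higher in Dhh-Cre was 8 without Sf1-Cre array 1, and the number higher in Sf1-Cre was 1 without Sf1-Cre array 2.

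The germ cell level was also entered into the fit as a covariate. With it 4697 genes passed, among them all 3402 of the fit without it, each with the same sign. The difference was 2.65 for Foxl2, -1.92 for Sox9, -5.09 for Rhox5, 4.59 for Sfrp4 and 2.95 for Sult1e1, close to the values without the covariate. The covariate is 1 mean over spermatogonia, spermatocyte and spermatid genes, whose medians differed in direction (-0.64, -0.34 and 1.56). It therefore cannot account for the mix of germ cells. With it 16 spermatid genes were higher in Sf1-Cre and 10 in Dhh-Cre, against 6 and 1 without it. Of the 194 genes examined singly none lost its call. The covariate was 6.64 and 7.54 in Dhh-Cre and 6.68 to 7.83 in Sf1-Cre, so it could move differences only little. Kept calls and close values are therefore no test of the germ cell share.

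Genes on the X chromosome passed as higher in Dhh-Cre more often than genes on any autosome. Of 464 X-linked genes tested, 96 (20.7%) were higher in Dhh-Cre and 56 (12.1%) higher in Sf1-Cre. On the autosomes together these shares were 11.5% and 12.9%, and on single autosomes 8.02% to 14.5% were higher in Dhh-Cre and 11% to 16.4% higher in Sf1-Cre. The share higher in Dhh-Cre was 12.1% on the X chromosome against 4.97% on the autosomes without Dhh-Cre array 1, and 14.4% against 7.8% without Dhh-Cre array 2. Without the 3 arrays of high Spink8 it was 7.54% against 2.91%. The difference was not tested, and genes on a chromosome are not independent. The 96 include genes of Sertoli cells (Tsx, Rhox5 and Nr0b1) and of germ cells (Tex11), which were named above for their size or by a list and are no separate support. The Y-linked genes Kdm5d, Eif2s3y and Uty did not pass, at 0.53 ± 0.21, 0.16 ± 0.16 and -0.02 ± 0.21 (adjusted p = 0.111, 0.486 and 0.95).

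**Figure D5:**
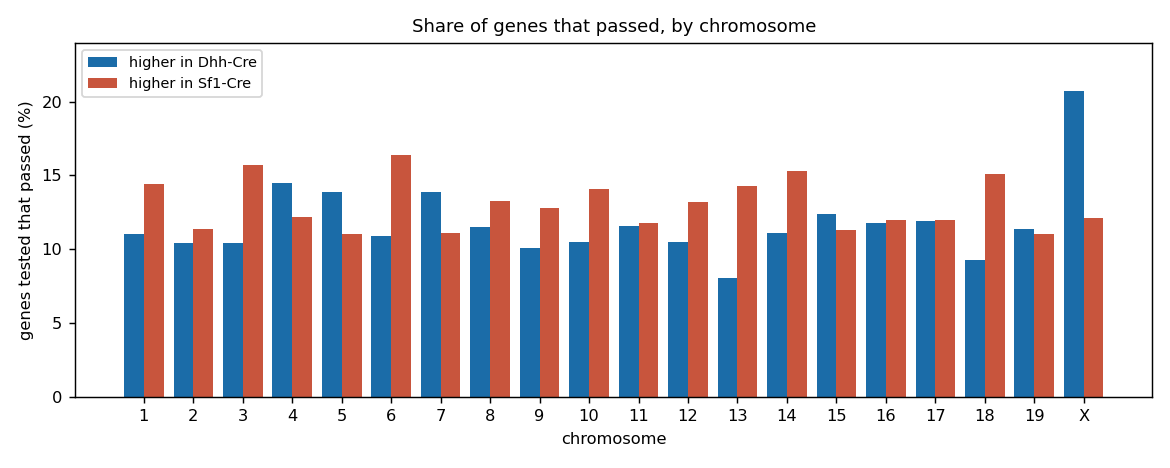
Percentage of the genes tested on each chromosome that passed as higher in Dhh-Cre or higher in Sf1-Cre, without the Y chromosome, which has 8 genes tested. The bar for Dhh-Cre on the X chromosome is at 20.7%, against 8.02% to 14.5% on the autosomes.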

How the data were processed

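Whole-testis RNA of 8 mice was hybridised to 1-colour oligonucleotide arrays of 45101 probe sets. The deposited values are linear intensities made by the authors with GCRMA, per the submitters' processing notes, with its version not given in the sources used here. GCRMA corrects background by probe sequence and normalizes probe signals across the arrays, so values are relative within the set. The deposited columns still differ, with median intensities of 13.7 to 15.9. Signals under 16 (log2 4) were taken as not read.

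The 34958 probe sets with 1 gene symbol in the platform annotation were kept (932 have several, 9211 none), 34754 were matched by Entrez number to RefSeq names, and each gene was represented by its probe set of highest mean across all 8 arrays. Of 18194 genes, 4392 were left out because fewer than 2 arrays reached log2 4. The log2 values of all 8 arrays were fitted with limma 3.58.1 in R 4.3.3 as 3 group means (5 residual degrees of freedom), so that the controls share the estimate of spread, and p-values were adjusted by Benjamini-Hochberg. The number of arrays limits the precision, and p-values measure the spread between these animals. The fit was tested on simulated data. All columns had a sample, and all titles carry the same numeric code, whose meaning is not given. No scan date or other batch is stated in the sources used here.

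The comparison, the 35 gene lists and the rule for named genes were chosen with earlier results of these data known. The rule names every gonadal sex gene, the 15 largest differences each way whose groups do not overlap, outside the germ cell lists and with a higher mean of at least log2 6, the 12 largest each way with a control mean under log2 4, and up to 4 members per list by p-value. Clu, Eppin, Fhod3, Cldn3, Inha, Cyp11a1, Csf1r, Ptch1 and the members named only in counts were chosen after their values were seen. Alternatives were quantile normalization, centring on housekeeping or on peritubular and endothelial genes, a floor at log2 4, other filters and thresholds, trended robust moderation, array weights, only the mutant arrays, the mean of all probe sets, the germ cell or Spink8 level as a covariate, the arrays of high Spink8 left out, a replicate block and each array left out.

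Whether replicate numbers pair the samples cannot be told from these values. Deviations of 2 Dhh-Cre arrays from their group mean mirror each other, so each correlation has its opposite. The correlation was -0.194 between the arrays numbered 1 of the 2 mutant groups and 0.38, the highest found, between those numbered 2.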

Additional observations from a re-analysis of the deposited data

Results flagged for a closer look

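Among 194 genes and 35 list medians examined in the 4 Sf1-Cre arrays, 6 genes and 2 medians had 1 array standing apart from the other 3 by a gap beyond Dixon's 95% critical value, which chance gives in about 1 of 20 groups.

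In Sf1-Cre array 1, S100a9, a neutrophil gene, stood at 12.17 against at most 4.897 in the other Sf1-Cre arrays, Cpa3, a mast cell gene, at 6.837 against at most 3.794, and the median of the mast cell and neutrophil list at 6.944 against at most 4.067. In the same array Gpnmb stood low, at 5.949 against at least 8.417. In Sf1-Cre array 4, Cep85 stood at 6.811 against at most 3.262. In Sf1-Cre array 2, Tgfb3 stood at 6.338 against at least 6.637, and the complement gene C1s1, which is also the median of its list, at 10.93 against at least 11.2.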

How the results depend on the processing

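The count of genes that passed depended on the arrays used. With 1 array left out, 1234 to 3717 genes passed, 519 to 2011 of them higher in Sf1-Cre and 715 to 1706 higher in Dhh-Cre. Without the arrays whose Spink8 reached log2 10, 816 passed (395 higher in Sf1-Cre and 421 in Dhh-Cre), and at an adjusted p under 0.01 in limma 1352 passed (593 and 759). Centring on peritubular and endothelial genes gave 1023 higher in Sf1-Cre. The other settings gave counts within 1.5 times those reported, 2731 to 4697 in all. With the number as a replicate block 2967 genes passed (1738 and 1229), 2368 of them among the 3402. Of the 194 genes examined, none that passed in the main fit or in a setting changed sign between the 2. Sign changes of genes that passed in neither numbered 39 over all genes and settings. With peritubular and endothelial centring 20 lost their call, and 0 did with the germ cell level as a covariate, which could move differences only little. Without the arrays of high Spink8, which leaves 1 Dhh-Cre array, more calls were lost than with either of these settings. Among them were calls that held when any 1 array was left out, such as those of Rdh10 and Lyz2. Leaving out either control equals fitting the mutants alone. Signal over background limits the low values: with all values under log2 4 set to 4, 3008 genes passed (1389 and 1619), and of the 144 named genes that passed, 17 moved by over 1.5 times and 10 lost their call. As the mean of all probe sets, 35 of the 133 such genes tested there moved by over 1.5 times and 7 lost their call.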

Other observations

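Among 5 tested oocyte genes, Nobox and Figla, both transcription factors of the oocyte, were higher in the arrays labelled Dhh-Cre, and Gdf9, an oocyte growth factor that germ cells of the testis also make, was higher in Sf1-Cre with all arrays and no floor. Nobox stood at 6.36 and 5.42 in Dhh-Cre, 3.26, 3.51, 3.30 and 3.12 in Sf1-Cre and 2.98 and 2.76 in the controls (-2.59 ± 0.26, adjusted p = 0.000724, limma). Figla stood at 6.63 and 6.49 in Dhh-Cre, 5.06, 4.72, 4.52 and 4.32 in Sf1-Cre and 5.67 and 5.55 in the controls (-1.90 ± 0.21, adjusted p = 0.00112). The Nobox and Figla calls held when any 1 array was left out. Gdf9 (0.73 ± 0.15, floored 0.14, adjusted p = 0.0126) did not pass without Dhh-Cre array 1 (adjusted p = 0.105) or floored (adjusted p = 0.442). Zp1, Zp2, Zp3, Bmp15, Oosp1, Ooep and Mos, which also mark oocytes, were below the filter. Of the 5 tested, 40% were higher in Dhh-Cre and 20% in Sf1-Cre, against 11.8% and 12.9% of all genes.

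The 250 bases before the start hold the androgen receptor half-site AGAACA (either strand) in 18.2% of the genes higher in Sf1-Cre and in 12.6% of those higher in Dhh-Cre, against 13.8% of the 11084 tested genes with a window. The difference was not tested.

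Of 13 immediate early genes, 15.4% were higher in Dhh-Cre, against 11.8% of all genes. These were Jun and Atf3, which rise on tissue handling (-0.78 ± 0.16 and -1.11 ± 0.24, adjusted p = 0.0118 and 0.0145, limma), neither without Dhh-Cre array 1. Alas2, of haem synthesis in red cells, was higher in Dhh-Cre (-2.06 ± 0.39, adjusted p = 0.00909), also not without that array. The epididymal list had a median of 0.02 over 4 tested members, and Lcn5, Lcn8, Gpx5 and Cst11 were below the filter, while Spink8 ranged from 3.11 to 12.05 over the 8 arrays.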
